A study of Mus musculus with 4 samples.

Results

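The CG methylation landscape described here is that of uninduced control cells, read from the 1 library of C3H10T1/2 cells that received control siRNA and were left untreated. Its members are all 158494 regions with a level in that library, of 632182 entries over the 4 libraries of the study. C3H10T1/2 is an established mouse line used as a model of mesenchymal stem cells, which can be driven towards bone, cartilage or fat. In the study the cells were transfected for 48 h with control siRNA or with siRNA against DNMT1, the enzyme that copies CG methylation to the new DNA strand, and then kept uninduced or taken through 3 days of OB (osteoblast) differentiation. Each condition is 1 library from this line. The uninduced control condition thus has no replicate and no p-value was computed. The other 3 libraries serve below only to show how far a level moves when the same line is measured again under another condition.

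In mammals most CG dinucleotides are methylated. CpG islands, short stretches rich in CG that lie at many gene starts, usually escape methylation, and a methylated island at a gene start goes with stable silencing. Imprinted genes carry methylation on the copy from a single parent, and in female mammals the islands of the inactive X chromosome become methylated.

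The stretch just upstream of a gene start is shown for 3 genes with a low and 3 with a high promoter level. They were picked from the gene lists below with their levels known and are examples, not a measure of all low or high promoters. Each stretch is the 250 bases before the RefSeq start (GRCm38.p6), written 5′ to 3′ on the strand of the gene, with every CG in capitals. The authors' promoter entry covers 2 kb, so these bases are only its gene-proximal end.
Klf4 (chr4:55532476-55532725, minus strand): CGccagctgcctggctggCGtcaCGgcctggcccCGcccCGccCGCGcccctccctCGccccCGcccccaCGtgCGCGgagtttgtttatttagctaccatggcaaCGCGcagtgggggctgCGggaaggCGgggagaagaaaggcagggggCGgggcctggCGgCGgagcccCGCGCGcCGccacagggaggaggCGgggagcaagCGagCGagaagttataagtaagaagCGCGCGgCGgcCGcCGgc
Cdkn1b (chr6:134920151-134920400, plus strand): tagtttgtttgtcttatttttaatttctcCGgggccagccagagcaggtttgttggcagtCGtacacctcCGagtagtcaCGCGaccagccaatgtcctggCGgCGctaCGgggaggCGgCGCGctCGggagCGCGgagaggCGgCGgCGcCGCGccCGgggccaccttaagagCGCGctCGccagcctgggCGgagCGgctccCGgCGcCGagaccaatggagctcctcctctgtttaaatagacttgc
Itgb1 (chr8:128685404-128685653, plus strand): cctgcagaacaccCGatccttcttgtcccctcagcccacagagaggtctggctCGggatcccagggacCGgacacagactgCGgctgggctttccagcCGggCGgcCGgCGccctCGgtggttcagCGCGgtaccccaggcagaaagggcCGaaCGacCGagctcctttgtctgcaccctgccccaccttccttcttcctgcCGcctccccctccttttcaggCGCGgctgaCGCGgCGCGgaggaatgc
Dazl (chr17:50293621-50293870, minus strand): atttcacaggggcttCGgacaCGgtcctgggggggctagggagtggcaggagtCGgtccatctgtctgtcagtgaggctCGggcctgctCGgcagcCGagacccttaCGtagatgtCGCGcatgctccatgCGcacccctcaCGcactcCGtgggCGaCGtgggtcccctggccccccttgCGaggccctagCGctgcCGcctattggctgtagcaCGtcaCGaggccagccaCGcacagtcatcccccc
Slc25a31 (chr3:40708621-40708870, plus strand): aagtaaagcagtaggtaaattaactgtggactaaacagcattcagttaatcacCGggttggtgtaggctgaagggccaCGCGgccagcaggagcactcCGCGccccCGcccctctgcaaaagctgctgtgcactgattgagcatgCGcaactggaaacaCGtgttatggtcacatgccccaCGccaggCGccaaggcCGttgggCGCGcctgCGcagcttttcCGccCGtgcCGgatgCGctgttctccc
Chad (chr11:94564797-94565046, plus strand): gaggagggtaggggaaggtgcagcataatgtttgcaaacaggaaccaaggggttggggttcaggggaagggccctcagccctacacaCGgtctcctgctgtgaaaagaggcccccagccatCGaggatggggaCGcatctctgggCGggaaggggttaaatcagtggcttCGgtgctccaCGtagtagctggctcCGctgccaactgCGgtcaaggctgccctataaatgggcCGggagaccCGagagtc
The promoter levels were 0.0209 for Klf4, 0.0126 for Cdkn1b and 0.0104 for Itgb1, against 0.756 for Dazl, 0.905 for Slc25a31 and 0.815 for Chad. Klf4 is a transcription factor, Cdkn1b a cell cycle inhibitor, Itgb1 an integrin chain, Dazl a germ cell RNA-binding protein, Slc25a31 a germ cell ADP/ATP carrier and Chad a cartilage matrix protein. CG dinucleotides number 32, 28 and 21 in the stretches of the 3 low promoters and 20, 18 and 10 in those of the 3 high ones. Dazl, with 20, was close to Itgb1 in CG number and far from it in level.

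Each level is a fraction from 0 to 1 of methylated CG calls in a region, with no read counts, so the depth behind it is unknown and a single level has no interval. Intervals given below (95%, Wilson for shares and order statistics for medians) are over regions. They treat regions as independent and hold no variation between cultures. A level under 0.1 is called low, from 0.5 high, and between these intermediate. Gene entries carry Ensembl identifiers, and 20659 of the 20670 promoters listed matched GENCODE vM21. Which genes were listed went with the number of CCGG sites, the cut site of the enzyme of reduced representation bisulfite sequencing. Of annotated genes with none in the 2 kb before the start 5.26% had a promoter level, of those with 3 63.5%, and of those with at least 5 91.6%. Every share below is over the listed genes and leaves out most promoters poor in this site.

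The 8 region classes fell into 3 kinds. 5′ UTRs and CpG islands were mostly unmethylated, 3′ UTRs were mostly methylated, and promoters, shores, exons, introns and repeats lay between. Islands had a median level of 0.0329 (interval 0.0313 to 0.0348, n = 14252), and 60.7% of them were low. Still, 2233 islands (15.7%) were high. Island shores, the flanks of the islands, had a median of 0.284 and almost equal numbers of low and high entries, 5579 and 5575 of 17033.

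Among the classes of genes, the median was 0.0286 in 5′ UTRs (n = 11784), 0.197 in promoters (n = 20670), 0.364 in exons (n = 20843), 0.425 in introns (n = 20146) and 0.674 in 3′ UTRs (n = 4552). None of the intervals of these medians overlap. The share of high entries rose in the same order of classes, from 9.64% of 5′ UTRs to 74.9% of 3′ UTRs, with promoters at 26.3%, exons at 37.3% and introns at 39.0%. Repeats had a median of 0.487 (n = 49214), and only 6.44% of them were low.

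**Figure D1:**
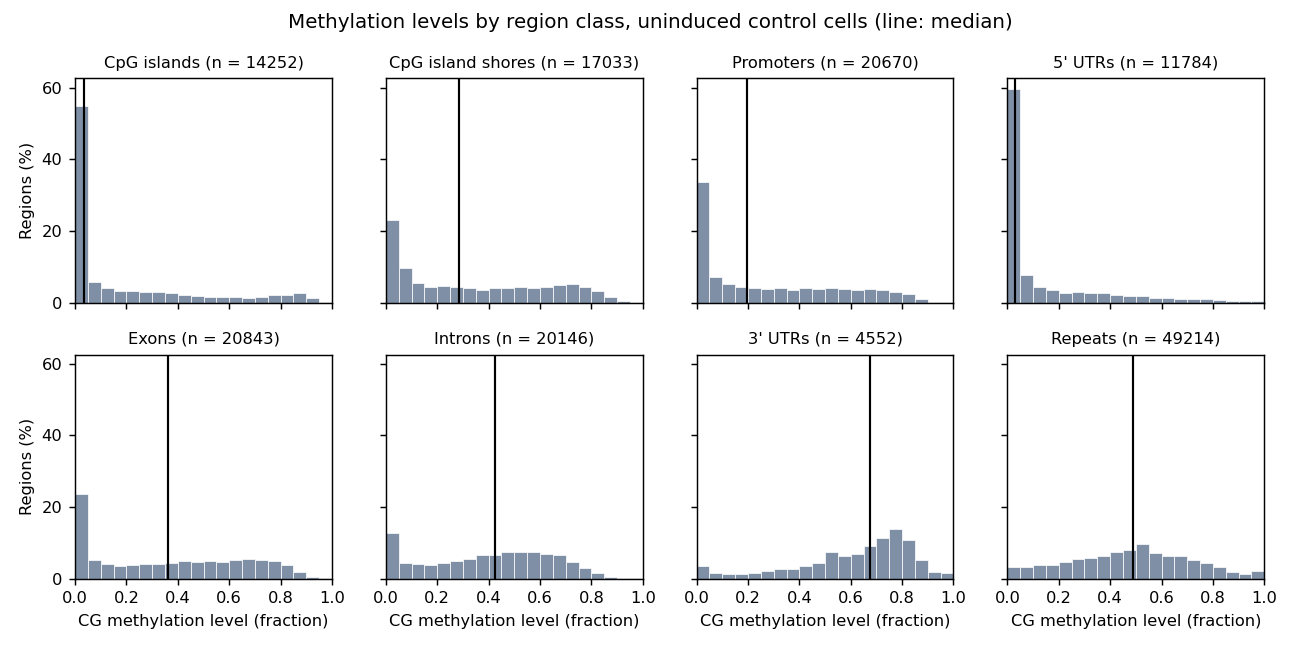
Share of regions (y axis, %) by CG methylation level (x axis, fraction, in bins of 0.05) for each of the 8 region classes in the uninduced control library, with the median as a vertical line. Islands and 5′ UTRs pile up under 0.05, 3′ UTRs lean to the high end with a median of 0.674, and repeats spread around 0.487.

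Of the 20670 promoters, 8401 were low and 5433 high, which is 40.6% and 26.3%. These shares are the background for the promoters of every gene group below. For 5′ UTRs the background is 67.3% low and 9.64% high. The other 6836 (33.1%) were intermediate. A level of exactly 0 was listed for 119 promoters and of exactly 1 for 19. Measured again in the other 3 libraries, a promoter differed from its level here by a median of 0.00826 to 0.0151, and the difference not passed by 95% of promoters was 0.0599 to 0.0878. Of the low promoters 98.1% to 98.8% were also low there, and of the high ones 89.4% to 95.6% were also high. Differences of 0.3 and more between promoters are larger than this spread, which also holds the effects of the siRNA and the induction. Single promoters moved further, such as Uxt, at 0.0547 here and 0.371 to 0.516 in the other libraries. How far single entries of the other region classes move was not measured.

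Promoters rich in CG were mostly unmethylated. CpG content was taken as the observed over expected ratio of CG in the 2 kb upstream window. Where it was at least 0.6, 71.3% of 2541 promoters were low (interval 69.5% to 73.0%) and the median level was 0.0251. From 0.4 to 0.6, 56.8% of 5105 were low. From 0.2 to 0.4 the share was 31.5% of 9698, and under 0.2 it was 18.6% of 3286. High promoters made up similar shares of the poorest class and the next, 36.8% and 34.6%. Across 20630 promoters the ratio and the level had a Pearson r of -0.360 and a Spearman rho of -0.393. This is across genes, which are not independent replicates. Ratio and level both refer to the 2 kb upstream of a start, but the authors' starts may differ from those of GENCODE vM21.

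A minority of CG-rich promoters was methylated. Of 1496 protein-coding promoters with a ratio of at least 0.6, 60 were high, against 2438 of all 13842 protein-coding promoters (17.6%). Of these 60 genes 13 have provisional names (Gm or Rik), and the rest were genes of many kinds. Gm11168, Gm10721, Gm10720, Gm10719, Gm10718, Gm10717 and Gm17535 lie together on chromosome 9, between bases 3003346 and 3035805. Each of their windows overlaps another annotated gene, so they are not separate cases. The following were picked after their values were seen, and the share of any kind among the 60 was not measured. The kinase gene Csnk1g2 had a level of 0.789, the Fc receptor gene Fcgr3 0.796 (0.444 to 0.796 in the other 3 libraries) and the chromatin protein gene Phf12 0.772 (0.537 to 0.787). The zinc finger factor Sall1 had a level of 0.841 (0.809 to 0.828 in the other 3 libraries), the homeobox factor Gsc 0.828 (0.806 to 0.819) and the homeobox factor Nkx6-2 0.749 (0.690 to 0.756). Aldh1a2, which makes retinoic acid, had 0.743, the RNA-binding protein Lin28b 0.710 and the bHLH-PAS factor Sim2 0.715. The methylation did not always reach the transcript. The 5′ UTR of Gsc was at 0.0237 and that of Sim2 at 0.165, while that of Nkx6-2 was at 0.742 and that of Aldh1a2 at 0.747.

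The level of an island went with its place. Of 8268 islands that hold the start of a protein-coding gene, 76.6% were low and 4.84% high, with a median of 0.0206. Of 4380 islands inside such a gene without its start, 39.4% were low and 31.4% high, with a median of 0.223. Islands outside annotated genes resembled the latter, with 30.8% low and 27.0% high of 723. Islands that hold only the start of a non-coding gene or pseudogene lay between, with 46.6% low and 27.0% high of 625. Of all 2233 high islands, 1377 were inside protein-coding genes and 400 at their starts. Island length differed too, with medians of 701 bases at protein-coding starts, 471 bases inside the genes and 364 bases outside genes, and its part in the difference was not tested.

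Over 15536 pairs of an island and an adjoining shore, the island median was 0.0473 and the shore median 0.259. The shore was at least 0.3 above its island in 3131 pairs and at least 0.3 below it in 623. Among 8789 pairs with a low island the shore median was 0.0742. The shore was low in 55.8% and high in 18.0% of these pairs. The split by the level of the island itself sets part of the order of island and shore in these groups. Beside high islands the median of 2734 shores was 0.647, and 71.1% of them were high.

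**Figure D2:**
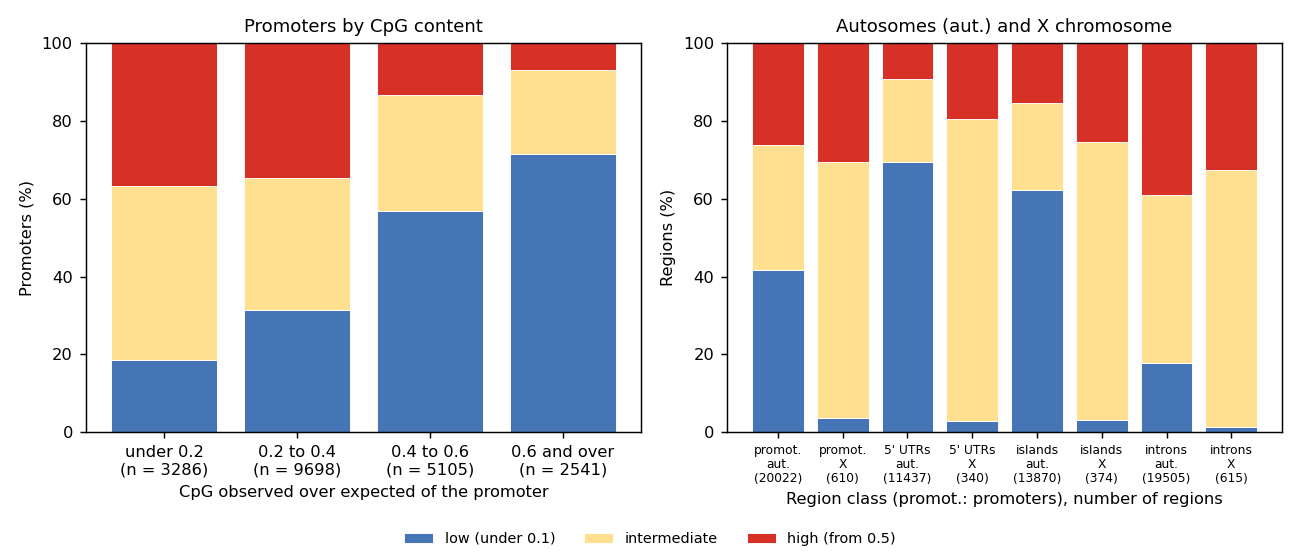
Shares (y axis, %) of low, intermediate and high regions, for promoters by the CpG observed over expected ratio of the upstream window (left) and for promoters, 5′ UTRs, islands and introns of autosomes and of the X chromosome (right, number of regions in brackets). The low share grows from 18.6% to 71.3% with the ratio, and X-linked promoters, 5′ UTRs, islands and introns are mostly intermediate.

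The X chromosome stood apart from the autosomes. Of its 610 listed promoters only 23 (3.77%) were low, against 41.7% of 20022 on autosomes, and 65.6% were intermediate, against 32.1%. The gap was widest where autosomes were least methylated. CG-rich promoters (ratio of at least 0.6) had a median of 0.397 on the X (n = 38) and 0.0245 on autosomes (n = 2503). Islands had medians of 0.367 (quartiles 0.306 and 0.501, n = 374) and 0.0305 (n = 13870), and 5′ UTRs 0.350 and 0.0267. Introns had almost the same median on both, 0.427 and 0.425, but not the same spread. On the X 1.46% of introns were low and 65.9% intermediate, against 17.7% and 43.1% on autosomes. 3′ UTRs were lower on the X, at 0.590 (n = 51) against 0.674. Xist, the RNA that coats the inactive X, had an exon level of 0.603, and its antisense gene Tsix one of 0.40. These 2 genes overlap, so some bases count for both, and they were picked after their values were seen. Of the Y chromosome 3 islands and no promoter were listed.

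The 23 low X-linked promoters, named here after their values were seen, include 13 of protein-coding genes. Among them are genes known to escape X inactivation in mouse. The RNA helicase Ddx3x had a promoter level of 0.0162 (0.0176 to 0.0221 in the other 3 libraries), the histone demethylases Kdm6a and Kdm5c had 0.0233 (0.0168 to 0.0246) and 0.0665 (0.0582 to 0.0703), and the translation factor gene Eif2s3x had 0.0106 (0.0143 to 0.0156). Jpx and Ftx, non-coding genes of the X inactivation centre, had 0.0127 and 0.0532. Utp14a, for a nucleolar protein, had 0.00695 and Pbdc1 0.0131. Some were not low in the other 3 libraries. Uxt was at 0.0547 here and at 0.371 to 0.516 in the other 3 libraries, and Nkrf at 0.0685 against 0.125 to 0.152.

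Gene biotypes differed too. Protein-coding promoters were low in 48.3% and high in 17.6% of 13842 cases. Long non-coding genes that share a promoter with a coding gene in the opposite direction had the largest low share of the biotypes with at least 50 promoters, 79.2% of 159, while other long intergenic RNAs were low in 23.3% and high in 41.6% of 1352. Processed pseudogenes, which are reverse-transcribed copies without the parent's promoter, were high in 61.9% and low in 5.67% of 1411. Their promoters also had fewer CG, with a median ratio of 0.244 against 0.354 for protein-coding genes and 0.640 for bidirectional genes, and its part in these shares was not tested. Promoters of rRNA genes were high in 73.9% of 88, although their median ratio was 0.612. Of all promoters with a ratio of at least 0.6 only 6.89% were high, but the 88 rRNA windows were not limited to that ratio. Whether copies of rRNA genes share sequence or bases in these windows was not checked. Promoters of miRNA genes were high in 48.8% of 598 and of snoRNA genes, many of which lie in introns of housekeeping genes, in 29.3% of 242.

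Housekeeping gene families were mostly unmethylated at their promoters. Of the 73 cytosolic ribosomal protein genes with a promoter level, of 80 in the family, 52 were low and 6 high, with a median of 0.0261. Among the lowest were Rpl37a at 0.00820 and Rpl32 at 0.0108. The highest were Rpl39l at 0.865 and Rpl10l at 0.738, copies used mainly in the testis, and Rpl41 at 0.734. Of 29 subunits of respiratory chain complex I 23 were low and none was high, with Ndufa13 the highest at 0.434. Of 35 proteasome subunits 23 were low, and of 32 tRNA ligases 21. In both families some members had a high promoter beside an unmethylated transcript start. Psmb2, a catalytic-core subunit, had 0.562 in its promoter and 0.0574 in its 5′ UTR, and Tars, the threonine ligase, 0.756 and 0.0261. Of 26 replication-dependent histone genes 21 were low, and the pair that was high, Hist1h2aa at 0.865 and Hist1h2ba at 0.810, encodes testis variants of neighbouring genes, where the promoter level of each equals the exon level of the other.

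Cell cycle inhibitors were low almost throughout. Of 11 genes 9 were low, with a median of 0.0204. The kinase inhibitors Cdkn1b, Cdkn2a, Cdkn2b, Cdkn2c and Cdkn2d ranged from 0.0126 to 0.0271, Cdkn1a was listed at exactly 0, and the tumour suppressors Trp53 and Rb1 had 0.0285 and 0.108. The exception was Cdkn1c at 0.678 (0.662 to 0.716 in the other 3 libraries), an imprinted gene, whose 5′ UTR was at 0.815.

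**Figure D3:**
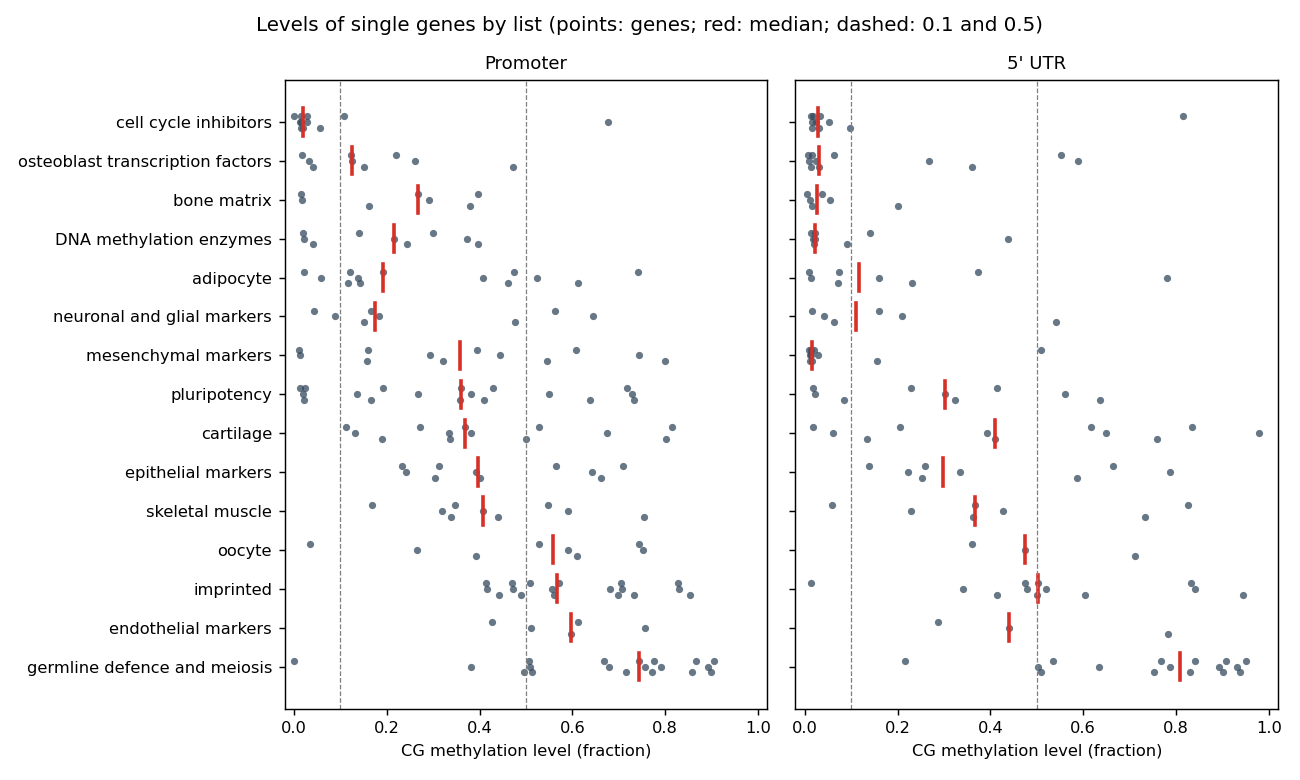
CG methylation level (x axis, fraction) of the promoter (left) and the 5′ UTR (right) of every listed gene of 15 gene lists, 1 point a gene, with the median of each list in red and the limits 0.1 and 0.5 dashed. Cell cycle inhibitors sit at the low end, germline genes at the high end with a promoter median of 0.743, and mesenchymal markers have scattered promoters (median 0.358) beside 5′ UTRs with a median of 0.0150.

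The markers of the cell type were checked next, since the labels call the line mesenchymal. Methylation alone does not show expression, so these values describe the marker genes and not the identity of the cells. Of 16 mesenchymal markers 12 had a promoter level, of which 2 were low, 6 intermediate and 4 high. Of their 5′ UTRs 8 of 10 were low, with a median of 0.0150, near the 67.3% of all 5′ UTRs that were low and their median of 0.0286. Itgb1 (0.0104) and the intermediate filament gene Vim (0.0140) were low at both. For Cspg4, a pericyte proteoglycan, the promoter was at 0.744 and the 5′ UTR at 0.0103. The bHLH factors Twist1 and Twist2 had 0.394 and 0.545 in the promoter and 0.0101 and 0.0136 in the 5′ UTR, and fibronectin (Fn1) 0.294 and 0.0137. Thy1, a surface marker of fibroblasts, was high in its promoter (0.799), exons (0.846) and introns (0.791), and the endoglin gene Eng was at 0.444 in the promoter and 0.509 in the 5′ UTR.

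Markers of other tissues were rarely low. Of 10 epithelial promoters none was low and 4 were high, among them the adhesion gene Cdh1 at 0.661 and the keratin gene Krt5 at 0.708, and none of 8 epithelial 5′ UTRs was low, against 67.3% of all 5′ UTRs. Of 5 endothelial promoters 4 were high, with Pecam1 at 0.756 and Cdh5 at 0.611. The 4 blood promoters with a level ranged from 0.120 (Itgam) to 0.469 (Spi1). Neuronal and glial genes were mixed, with 2 of 8 promoters low and 2 high. Among the neuronal genes Map2 was at 0.0433, Nefl at 0.0889 and Syp at 0.477. Among the glial genes Olig2 was at 0.167 (0.370 to 0.422 in the other libraries), Gfap at 0.561 and Mbp at 0.644. Of 6 neuronal and glial 5′ UTRs 3 were low. Of 8 liver markers only Serpina1a had a promoter level, 0.327.

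Genes of the lineages open to this line were not uniform. Of 9 promoters of osteoblast transcription factors 3 were low and none was high, with a median of 0.124. Runx2, the master regulator of bone formation, was at 0.0179 (0.0149 to 0.0165 in the other 3 libraries), Atf4 at 0.0331 and Lef1 at 0.0413. Sp7, which acts after Runx2, was at 0.151 in the promoter but 0.552 in the 5′ UTR, and the homeobox factor Msx1 had the opposite arrangement, 0.472 and 0.0140. Of 7 bone matrix promoters 2 were low and 5 intermediate, with a median of 0.267. The collagen I chain Col1a2 was at 0.0155, the pyrophosphate transporter Ank at 0.0177 and Col1a1 at 0.162 with 0.00513 in its 5′ UTR, the phosphatase genes Phospho1 and Alpl at 0.267 and 0.380, the pyrophosphate-making enzyme Enpp1 at 0.292 and osteonectin (Sparc), the highest, at 0.396. The osteocalcin genes Bglap and Bglap2 had no promoter entry and were at 0.678 and 0.735 in their exons.

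Cartilage genes were higher. None of 13 promoters was low and 5 were high, with the matrix genes Chad at 0.815 and Comp at 0.801 at the top. The chondrogenic factor Sox9 was the lowest at 0.112, with 0.0171 in its 5′ UTR. Of 13 adipocyte promoters 2 were low and 3 high. Of the adipogenic factors, Cebpd was at 0.0221, Cebpa at 0.0578, Cebpb at 0.120 and Pparg at 0.143 (5′ UTR 0.0139), all toward the low end. The brown fat factor Ebf2 was the highest at 0.742, while the brown fat genes Prdm16 and Ucp1 were at 0.139 and 0.192. Genes of mature fat cells such as Adipoq at 0.408 and Lep at 0.613 lay between. Of 9 skeletal muscle promoters none was low. Myod1, the muscle master regulator, was at 0.346 and the desmin gene Des at 0.753.

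Of 18 promoters of pluripotency genes 4 were low and 5 high. The low ones were Klf2 (0.0128), Klf5 (0.0195), Klf4 (0.0209) and Fbxo15 (0.0235), of which the Klf genes are also used outside stem cells. The core factor gene Pou5f1 and the stem cell markers Zfp42 and Dppa5a were at 0.728, 0.733 and 0.718. Sox2 was at 0.167, and Nanog had no entry in any class.

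Germline genes had the highest median of the lists read. Of 19 promoters of genes for meiosis and germline genome defence 16 were high (84.2%, interval 62.4% to 94.5%, against 26.3% of all promoters), and the median was 0.743. The list was chosen with earlier results of these data known. The meiotic axis genes Sycp2 and Hormad1 were at 0.898 and 0.792, the germ cell helicase Ddx4 at 0.891 (0.885 to 0.899 in the other 3 libraries), the piRNA pathway gene Asz1 at 0.857 and the germ cell factor Sohlh2 at 0.865. Their 5′ UTRs were high too, in 15 of 16 genes against 9.64% of all 5′ UTRs, with a median of 0.808. The stretches printed above for Dazl and Slc25a31 belong to this group. Brdt, a testis bromodomain gene, was listed at exactly 0 in all 4 libraries while its exons were at 0.493. Oocyte genes had 5 high promoters of 8, with the egg gene Zar1 at 0.753 and the growth factor gene Gdf9 at 0.0348, and of 4 spermatid promoters 3 were high, with the acrosome gene Spaca1 at 0.895.

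Imprinted genes lay in the middle and above. Of 18 promoters of imprinted genes none was low, and the range was 0.414 to 0.852 with a median of 0.566. Between 0.4 and 0.6 there were 10 of them, and 8 lay above. Over all promoters 15.7% lay in that band. A 2 kb window upstream of the start need not hold the imprinted region itself. Of 12 imprinted 5′ UTRs 6 lay in the same band, against 7.10% of all 5′ UTRs. By the limits used above, 1 was low and 7 were high, with a median of 0.502. The 6 in the band were Mcts2 at 0.413, Grb10 at 0.474, Plagl1 at 0.478, Igf2r at 0.50, Zrsr1 at 0.503 and Peg10 at 0.520. Peg3 at 0.340 was below the band, and Snrpn at 0.604 and Zdbf2 at 0.833 above it. The exons of the non-coding RNA H19 were at 0.516 and those of Kcnq1ot1, which has no promoter entry, at 0.474. Further genes above the band were Nnat at 0.852 in the promoter and 0.943 in the 5′ UTR, and Slc38a4, at 0.705 and 0.841. Inpp5f had a promoter of 0.829 and a 5′ UTR of 0.0127.

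The genes of the methylation machinery were themselves low or intermediate. Of 9 promoters 3 were low, those of Tet2 (0.0196) and Tet3 (0.0402), which oxidise methylated cytosine, and of Uhrf1 (0.0224), which guides DNMT1 to newly copied DNA, and none was high. Dnmt1 was at 0.244 in the promoter (0.187 to 0.226 in the other 3 libraries) and 0.0224 in the 5′ UTR. The de novo enzyme genes Dnmt3a and Dnmt3b were at 0.30 and 0.215, and Dnmt3l, a germ cell cofactor, was the highest at 0.396. Of 14 genes that the study names, 13 had a promoter level, of which 4 were low and only H19 (0.697) was high. The Notch target Hey1 was at 0.0179, the integrin gene Itga8 at 0.0220, its ligand gene Npnt at 0.122, the histone deacetylase Hdac9 at 0.0605, the nuclear receptor Rora at 0.124, the hedgehog ligand Ihh at 0.144, the growth factor receptor Fgfr2 at 0.243 and the BMP antagonist Grem1 at 0.395.

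Among families of developmental regulators, the shares of low promoters in the Hox, T-box, Sox and Wnt families were below the 40.6% of all promoters, and that of forkhead factors was near it. Of 35 Hox promoters 4 were low, 23 intermediate and 8 high, with Hoxa4 (0.0144) among the lowest and Hoxa3 (0.787) and Hoxb2 (0.762) the highest, so that members of the same cluster stood at both ends. Of 15 T-box promoters 1 was low, the limb and skull factor Tbx15 at 0.0232, and 6 were high. Of 18 Sox promoters 1 was low and 8 high, with Sox12 at 0.0491 and Sox4 at 0.830, although the 5′ UTR of Sox4 was at 0.0163. Of 32 forkhead promoters 12 were low (37.5%), Foxj3 and Foxp1 being the lowest and Foxk1 the highest at 0.649. Of 15 Wnt ligands 2 were low (Wnt9a, 0.0355, and Wnt3a, 0.0789) and 2 high (Wnt2, 0.821, and Wnt10b, 0.694).

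Structural and tissue-specific families likewise had few low promoters. Of 20 keratin promoters none was low and 11 were high, from Krt27 at 0.364 to Krt26 at 0.869. Of 32 collagen promoters 4 were low and 10 high. Col1a2 and Col4a2 (a basement membrane chain) were the lowest, at 0.0155 and 0.0161, and Col6a6 (0.765) and the epithelial chain Col17a1 (0.725) the highest. Of 56 olfactory receptor promoters with a level, out of 1135 genes, 5 were low and 18 high, and for Olfr281 the level of 1.00 here was 0.478 to 1.00 in the other 3 libraries. The median ratio of observed over expected CG in these olfactory windows was 0.161. Vomeronasal receptors had 13 promoters with a level of 331 genes, of which 1 was low and 2 high, and cytochrome P450 family 2 had 10 of 48, with 1 low and 3 high. The median ratio was 0.164 for vomeronasal receptors, 0.163 for cytochrome P450 family 2, 0.225 for keratins and 0.304 for collagens. Over all promoters 31.5% were low at ratios from 0.2 to 0.4 and 18.6% under 0.2. The part of CG content in the low shares of these families was not tested. Zinc finger genes named Zfp had shares near those of the housekeeping families, with 185 low and 26 high of 277 and a median of 0.0351.

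The families left had few promoters with a level. The clustered protocadherins had 7 of 57, of which 4 were high, with Pcdhga11 at 0.765 and Pcdhgc3 at 0.0300. Of 6 keratin-associated proteins 1 was low and none high, of 4 beta-defensins 3 were high, and of the taste receptors only Tas1r1 (0.0203) and of the major urinary proteins only Mup21 (0.447) had a level. No interferon-alpha gene had an entry in any class.

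**Figure D4:**
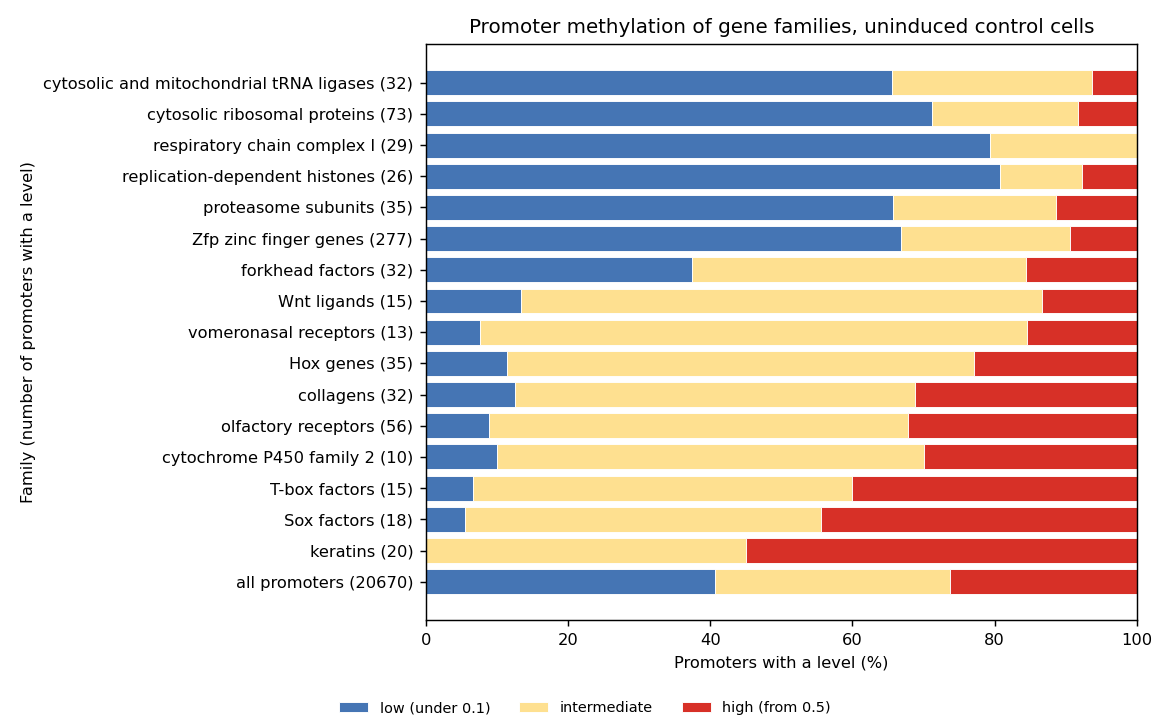
Shares (x axis, %) of low, intermediate and high promoters in 16 gene families and over all promoters (y axis, number of promoters with a level in brackets), ordered by the family median. Families from tRNA ligases to Zfp genes have more low promoters than the 40.6% over all promoters, and no keratin promoter is low.

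Within a gene, the level changed with the position along it. The 5′ UTR followed the promoter most closely or lay below it. Of 10923 genes with both, 957 (8.76%) had a 5′ UTR at least 0.3 below the promoter and 270 (2.47%) one at least 0.3 above it. Exons were higher than the promoter in 2931 of 16125 genes (18.2%) and lower in 785 (4.87%). Introns were higher in 3746 of 14398 (26.0%) and lower in 657 (4.56%). 3′ UTRs were higher in 2346 of 3822 (61.4%) and lower in 112 (2.93%).

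Across genes, which are not independent replicates, the Spearman rho of the promoter level was 0.598 with the 5′ UTR, 0.591 with exons, 0.397 with introns and -0.0899 with 3′ UTRs. Exons and 5′ UTRs of a gene can share bases. In Ddx4 both entries were at 0.937, and in Sycp2 at 0.907. Promoter entries may also share CG with other regions of the gene. In Sycp3 the promoter and the 5′ UTR were both at 0.509, and in Figla the promoter and the introns both at 0.393. The part of such sharing in these correlations and in the counts above was not measured. A low promoter did not fix the state of the gene body. Of 6668 genes with a low promoter and introns listed, the introns were low in 2443 (36.6%) and high in 1663 (24.9%), with a median of 0.224. With low under 0.05 and high from 0.75, the count with a low promoter and high introns was 221 in place of 1663. Of 2807 genes with a high promoter the introns were high in 1740 (62.0%) and low in 124.

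The 3014 protein-coding genes with all 5 entries show the course along the gene. For the 1393 with a low promoter the median went from 0.0247 in the promoter to 0.0180 in the 5′ UTR, 0.294 in exons, 0.321 in introns and 0.727 in the 3′ UTR. For the 440 with a high promoter it went from 0.642 to 0.373, 0.631, 0.554 and 0.687. The 5′ UTRs of the latter spread widely, with quartiles of 0.0389 and 0.649, so that low and high transcript starts were both found behind a high promoter. At the 3′ UTR the promoter classes met. Genes with a low promoter had the higher median there, 0.727 (interval 0.718 to 0.735) against 0.687 (0.658 to 0.709) with a high and 0.663 (0.648 to 0.677) with an intermediate promoter.

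**Figure D5:**
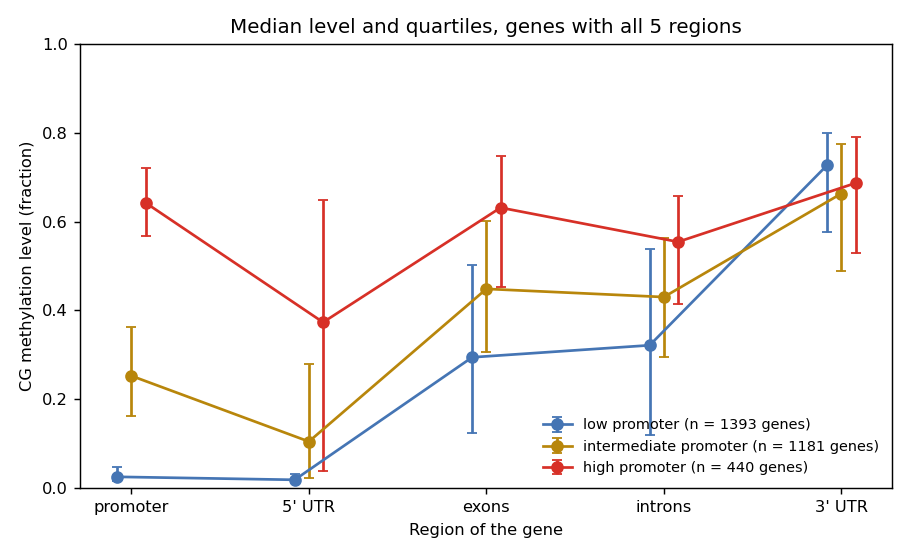
Median CG methylation level (y axis, fraction) in the promoter, 5′ UTR, exons, introns and 3′ UTR (x axis) of the 3014 protein-coding genes with all 5 entries, by the class of their promoter, with bars from the first to the last quartile limit. The lines start far apart, all dip at the 5′ UTR and meet between 0.663 and 0.727 at the 3′ UTR.

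Single genes showed sharp borders. With a methylated promoter and an unmethylated 5′ UTR, Wdr89 had 1.00 and 0.0245 and Srrt, an RNA processing factor, 0.878 and 0.0235. The reverse was seen in Zfp580, with 0.0174 in the promoter and 0.953 in the 5′ UTR, and in Foxj1, the master regulator of motile cilia, with 0.0640 and 0.875. Ccn4, a secreted matricellular protein, rose from 0.00624 in the promoter to 0.877 in its exons, Tmem242 from 0.0189 to 0.885 in its introns and the Polycomb gene Cbx6 from 0.0173 to 0.863. Khnyn and Ltn1, a ubiquitin ligase of the ribosome quality control pathway, went the other way, from 0.793 and 0.789 in the promoter to 0.0234 and 0.0207 in the introns. The steepest rises ended at the 3′ UTR, which was at exactly 1 in Sp1 and Atf5, both transcription factors with promoters of 0.0103 and 0.00748, and at 0.992 in the lactate dehydrogenase gene Ldha (promoter 0.0119). A level of exactly 1 was listed for 27 of 4552 3′ UTRs, and the depth behind these entries is unknown. Of the genes with such borders named here, Srrt, Zfp580, Foxj1, Khnyn, Ltn1 and Atf5 have an upstream window that overlaps another annotated gene.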

How the data were processed

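The 4 libraries are bisulfite libraries of C3H10T1/2 cells, and the uninduced control siRNA library is described. Per the labels, reads were processed with CASAVA, Trimmomatic (version 0.36) and Bismark (version 0.16.3) on mm10. The protocol in the labels describes shearing by sonication, while the samples are named as reduced representation libraries. The authors deposited the fraction of methylated CG per region, with 1 value per gene and class, and promoters are the 2 kb upstream of the start. The coverage minimum, the weighting of cytosines and the annotation release are not given in the sources used here. RNA-seq and other assays of the study were not analysed here, and a few genes that the naming rule covers are not reported here.

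Levels were joined on Ensembl identifiers to GENCODE vM21, and CG content was counted on RefSeq GRCm38. The island coordinates fit this assembly, where each of 14247 islands begins and closes with CG if its start is counted from 0, and printed positions are counted from 1. A region was called low under 0.1 and high from 0.5, and regions of a gene were called different from 0.3. With 1 library no test was run, and shares and medians are described with intervals at 95%. The functions were checked on simulated data. Genes named are all members of lists of at most 30 genes, the 3 highest and 3 lowest promoters of larger families, the 5 largest disagreements of each kind between a promoter and another region among genes with all 5 entries, the genes the study names, and the 5 lowest and 5 highest symbol stems. Members and lists were chosen with earlier results of these data known. The classes of island place and the island and shore pairs were added after seeing the data. Alternatives covered thresholds, the size of a difference within a gene, the CG measure, autosomes only, levels of exactly 0 or 1, gene sets, windows free of other genes, the region read and the other 3 libraries. The tools were Python 3.11.15 with numpy 2.4.6, scipy 1.17.1, pandas 2.3.3 and, for figures, matplotlib 3.10.9.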

Additional observations from a re-analysis of the deposited data

How the results depend on the processing

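The 14 main quantities were recomputed under each alternative, which gave 116 values. Of these, 71 stayed within the interval of the main value, or within 1.5 times a count, and 45 moved past it. With low under 0.05 and high from 0.75, low shares were 55.0% of CpG islands, 33.6% of promoters, 39.8% of protein-coding, 62.8% of CG-rich and 2.13% of X-linked promoters, and high shares 7.20% of all, 2.32% of CG-rich, 23.5% of processed pseudogene and 47.4% of germline promoters, with 221 genes with a low promoter and high introns. With low under 0.2 and high from 0.6, the low shares were 68.3%, 50.2%, 59.4%, 80.4% and 9.67%, and the high shares 18.5% of all, 4.96% of CG-rich and 46.5% of processed pseudogene promoters. On autosomes alone 62.3% of islands, 41.7% of promoters and 49.7% of protein-coding promoters were low. Over protein-coding genes alone 48.3% of promoters were low and 17.6% high. Without windows that overlap another gene 34.9% of promoters were low, 1942 genes had introns above the promoter, 588 a 5′ UTR below it and 821 a low promoter with high introns, and with only genes that have all 5 entries these counts were 974, 351 and 399. Fewer genes enter both. A difference of at least 0.2 gave 1484 genes with a 5′ UTR below the promoter, and of at least 0.5 387, with 1701 with introns above it. By 5′ UTR in place of promoter, 91.8% of ribosomal protein genes were low, where the background was 67.3% of all 5′ UTRs in place of 40.6% of all promoters. By CG count in place of the ratio, 64.7% of the CG-rich promoters were low and 8.62% high. In the OB-induced control library 62.2% of islands, 42.1% of promoters and 50.2% of protein-coding promoters were low, and in the OB-induced DNMT1 siRNA library 62.8%, 43.1% and 51.2%, with 74.0% of CG-rich promoters low, 5.65% of them high and 24.1% of all promoters high. The cause of these shifts was not tested. Leaving out levels of exactly 0 or 1 moved no quantity, nor did the DNMT1 siRNA, uninduced library. A coverage minimum could not be varied, since the levels come without coverage, and depth limits single regions by an unknown amount. No paired analysis was possible because the condition is 1 library.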

Other observations

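Repeats gave 49214 of the entries, and their classes differed. Among repeat classes with at least 1000 entries, LINE/L1 elements, the main autonomous retrotransposons of the mouse, had the lowest median, 0.418 (n = 22933, 7.16% low). The LTR classes lay higher, with 0.524 for ERVL, 0.528 for MaLR, 0.533 for ERV1 and 0.540 for ERVK, the class with the IAP elements. SINEs were highest among these classes, with B4 at 0.551, Alu-type B1 elements at 0.556 and B2 at 0.582 (n = 1596), while the older MIR elements were at 0.506 with the largest low share of the 9 classes, 10.8%. Reads of near-identical copies cannot always be placed, so levels of young repeats are uncertain.

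Gene symbols were also grouped by their stem, over the 102 stems with at least 15 protein-coding promoters. The lowest medians were those of Ube (ubiquitin transfer, 0.0216, 26 of 34 low), Eif (translation initiation, 0.0216, 32 of 45), Rad (many of them DNA repair genes, 0.0219, 14 of 18), Mrpl (mitochondrial ribosome, 0.0220, 29 of 36) and Abhd (hydrolases, 0.0223, 14 of 16). The highest were Krt (keratins, 0.580), Cdh (cadherins, 0.533), Sox (0.484), Myo (mostly myosins, 0.412) and Unc (0.395). Of 15 Cdh promoters 8 were high and 1 low. All 21 promoters listed for genes of the mitochondrial genome were low, with a median of 0.0367 and a highest level of 0.0408. The upper quartile had the same value as the median. Windows of 2 kb can share bases between neighbouring genes, so these entries are not separate measurements.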
